A study of Mus musculus with 8 samples.

Results

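The proximal kinases and adaptors of IgE signalling are the proteins that stand directly behind the high-affinity IgE receptor, FcεRI, on the inner face of the mast cell membrane. They were taken as the genes with the symbols *Lyn*, *Fyn*, *Syk*, *Btk*, *Lat*, *Lat2*, *Lcp2*, *Gab2*, *Plcg1* and *Plcg2*. All 10 were found among the 24059 gene symbols counted, and all 10 passed the filter on low counts, which 14934 genes passed. The cells were BMMCs, mast cells differentiated in culture with IL-3 for at least 4 weeks from the whole bone marrow of C57BL/6 mice. The study used the cells of 4 mice aged 6 to 8 weeks and transfected them by electroporation with Cas9-gRNA ribonucleoproteins (RNPs), which are complexes of the Cas9 nuclease and guide RNAs. The 4 Scrambled samples, with the genotype label Zc3h12a WT, received a non-targeting guide. The 4 Zc3h12a RNP samples received a pool of 3 guides against *Zc3h12a*, the gene of the RNA-degrading protein Regnase-1. Cells of both groups went through the same electroporation, were kept for 1 week more and were lysed at rest, with no IgE or antigen. Each sample was a transfected population and not a clone, and the share of edited cells was not analysed here. The samples are numbered 1 to 4 in both groups, and samples with the same number were treated as a pair.

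When antigen brings FcεRI molecules together, the Src family kinase Lyn phosphorylates the receptor's β and γ chains, and the γ chains then bind Syk. Syk and Lyn phosphorylate the membrane adaptor Lat and its relative Lat2, which serve as docking platforms. The adaptor encoded by *Lcp2* bridges Lat to phospholipase Cγ and to the Tec family kinase Btk. Phospholipase Cγ releases the messengers that open calcium stores and activate protein kinase C. A branch that begins with the kinase Fyn and the adaptor Gab2 leads to PI3 kinase. Lyn also has an inhibitory role in mast cells, since it phosphorylates inhibitory receptors and adaptors. The measurement here was of transcript abundance in resting cells, so it gives the stock of transcripts for this pathway and nothing on phosphorylation.

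The perturbation is defined by its 3 guide sites, which lie on chromosome 4 of GRCm39 within *Zc3h12a* (125012216 to 125021711, minus strand), and are shown because they define the Zc3h12a RNP group. Each is written 5′ to 3′ as the plus strand reads, in lower case, with the PAM, the short motif that Cas9 needs beside its target, in capitals.
crRNA 1: caccactccgtcggattcgaAGG
crRNA 2: ttgcttccgtcgatgaccacAGG
crRNA 3: ggacaggcttcgttccacaaGGG
The site of crRNA 1 (125014763 to 125014782) lay in the coding sequence of 3 of the 4 coding transcripts annotated for the gene. The sites of crRNA 2 (125020411 to 125020430) and crRNA 3 (125020811 to 125020830) lay in the coding sequence of 4 of 4. Each guide had 1 perfect match in the genome, and the scrambled guide had 0.

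The transcript of the targeted gene was at 24.9, 38.0, 37.1 and 39.3 CPM in Scrambled samples 1 to 4, and at 26.8, 41.1, 32.2 and 32.6 CPM in Zc3h12a RNP samples 1 to 4. CPM are counts scaled to the TMM-normalized library size. The groups overlapped, so the level of *Zc3h12a* RNA does not tell the groups apart and does not check the labels. Total counts ranged from 19610240 to 33986762 per sample. The labelled cell type was checked by marker genes. All 10 mast cell markers were detected at a mean of at least 1 CPM, with summed levels of 51071 to 60928 CPM in Scrambled and 49231 to 52184 CPM in Zc3h12a RNP samples. Of the markers of other cells found in the files, 1 of 8 for macrophages and 0 of 3 for neutrophils reached that level. For B cells 2 of 7 did, and for T cells 1 of 6. The neutrophil and T cell lists had 7 genes each, and the rest were absent from the files. No sample had a sum above 6.33 CPM for any of these 4 lists. By contrast, 5 of 5 basophil markers and 3 of 4 platelet and megakaryocyte markers reached that level. Their sums were at least 2646 and 1787 CPM in every sample, as described in the closing section. The basophil list includes *Fcer1a*, which mast cells also express. In such bulk samples, fewer cells of a type and less RNA per cell cannot be told apart.

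Levels of different genes were compared as CPM per kilobase of exon, with the length taken over the union of all annotated exons of a gene. *Lat2* was the most abundant of the 10, at 214 ± 17.9 (SD, n = 8 samples), followed by *Lcp2* at 157 ± 19.3. The transcripts of these adaptors therefore stood above those of every kinase in the list. *Btk* came next at 92.3 ± 19.1 and was not separated from *Lat* at 82.3 ± 10.7, since *Btk* was above *Lat* in 6 of 8 samples. A middle group was formed by *Lyn* at 41.7 ± 3.97, *Gab2* at 41.5 ± 5.08, *Plcg1* at 35.5 ± 5.18 and *Plcg2* at 28.1 ± 2.16. Within this group, *Lyn* was above *Gab2* in 4 of 8 samples and *Gab2* above *Plcg1* in 7 of 8, so these neighbours did not differ beyond their spread. *Plcg1* was above *Plcg2* in 8 of 8 samples, although the ranges of these genes over the samples overlapped. *Syk*, the kinase at the centre of the pathway, was near the bottom of the order at 11.7 ± 1.83, and *Fyn* was lowest at 2.33 ± 0.571.

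**Figure D1:**
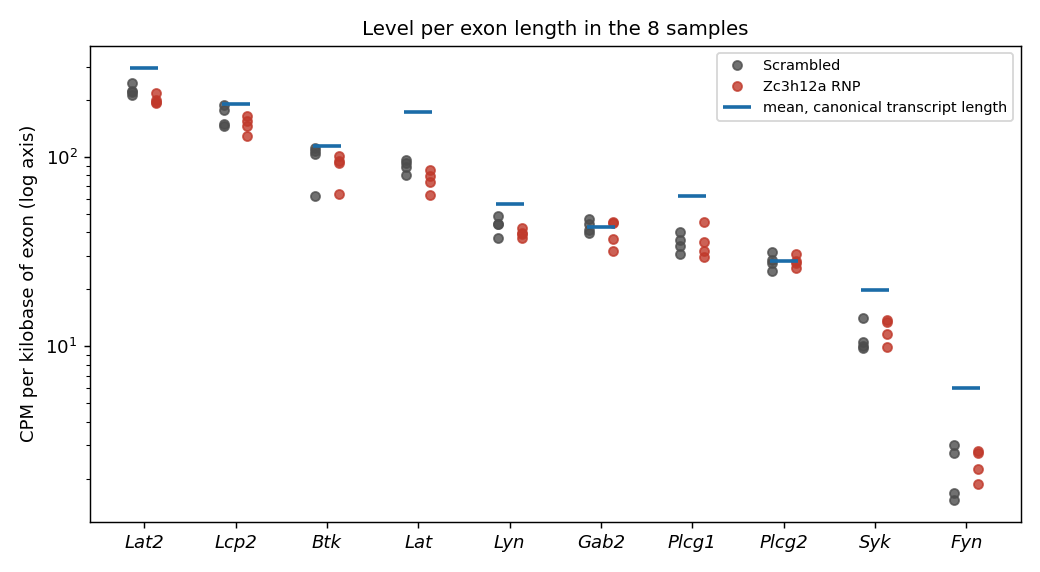
CPM per kilobase of exon on a log axis for the 10 genes, ordered by their mean; each point is 1 sample, grey for Scrambled and red for Zc3h12a RNP, and the blue bar is the mean over the 8 samples when the canonical transcript's length is used in place of the union of exons. The means of *Lat2* and *Lcp2* lie at the top and that of *Fyn* at the bottom with either length. The mean of *Lat* moves from 82.3 to 174, near that of *Lcp2* at 191.

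The choice of length matters for genes with long alternative exons. With the length of the canonical transcript, which was tried after the values were seen, *Lat* at 174 passed *Btk* at 114, and *Plcg1* at 62.2 passed both *Lyn* at 56.6 and *Gab2* at 42.9, so that 5 of the 10 genes kept their place. *Lat2*, *Lcp2*, *Plcg2*, *Syk* and *Fyn* were those 5. Exons of *Lat2* share 1708 bases with exons of *Rfc2*, a replication factor subunit gene on the opposite strand, which is 49% of the exon bases of *Lat2*. *Rfc2* was itself counted at 207 to 300 CPM. The strand setting of the counting is not given in the sources used here, and the part of *Rfc2* reads in the *Lat2* counts was not tested. *Lcp2* shares 17.7% of its exon bases with *4930469K13Rik*, which did not exceed 0.39 CPM, and *Plcg1* shares 4.24% with *Zhx3*, at 19.5 to 35.8 CPM.

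The comparison of Zc3h12a RNP with Scrambled samples asks whether targeting Regnase-1 alters the transcript stock of this pathway. No gene of the 10 was called higher or lower, where a call needed a log2 fold change beyond 0.5 and an adjusted p at or under 0.05 in the quasi-likelihood test of edgeR, blocked by replicate number, and 0% of the 14934 genes tested were called. At an unadjusted p at or under 0.05, the test gave 1 of the 10, *Lat*, beside 6.17% of all genes tested (4.05% in the lower direction). The groups overlapped for all 10 genes, and 0.924% of all genes had groups that did not overlap. The fitted log2 fold change was negative for 7 genes and positive for 3, with a median of -0.12 beside 0.04 over all genes. The mast cell markers had 9 negative values of 10 and a median of -0.12 as well, with 2 of them lower at an unadjusted p at or under 0.05, *Hdc* (-0.75) and *Tpsb2* (-0.28), and the part of this in the members' values was not tested. *Lat*, *Lat2* and *Lcp2* were lower in the Zc3h12a RNP sample of all 4 pairs, which held for 8.54% of all genes. None of the 10 was higher in all 4 pairs, which held for 4.98% of all genes. All 10 intervals of 95% confidence lay within a log2 fold change of 0.5 in either direction, from -0.46 at the lower end for *Lat* to 0.40 at the upper end for *Fyn*. Changes as large as the threshold therefore lay outside the interval for each gene, while smaller changes, in most cases in either direction, lay inside it. Raw counts of these genes ran from 410 to 27188 per sample, so the counting error of a value was at most 4.94% (*Fyn*), below the spread between samples.

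**Figure D2:**
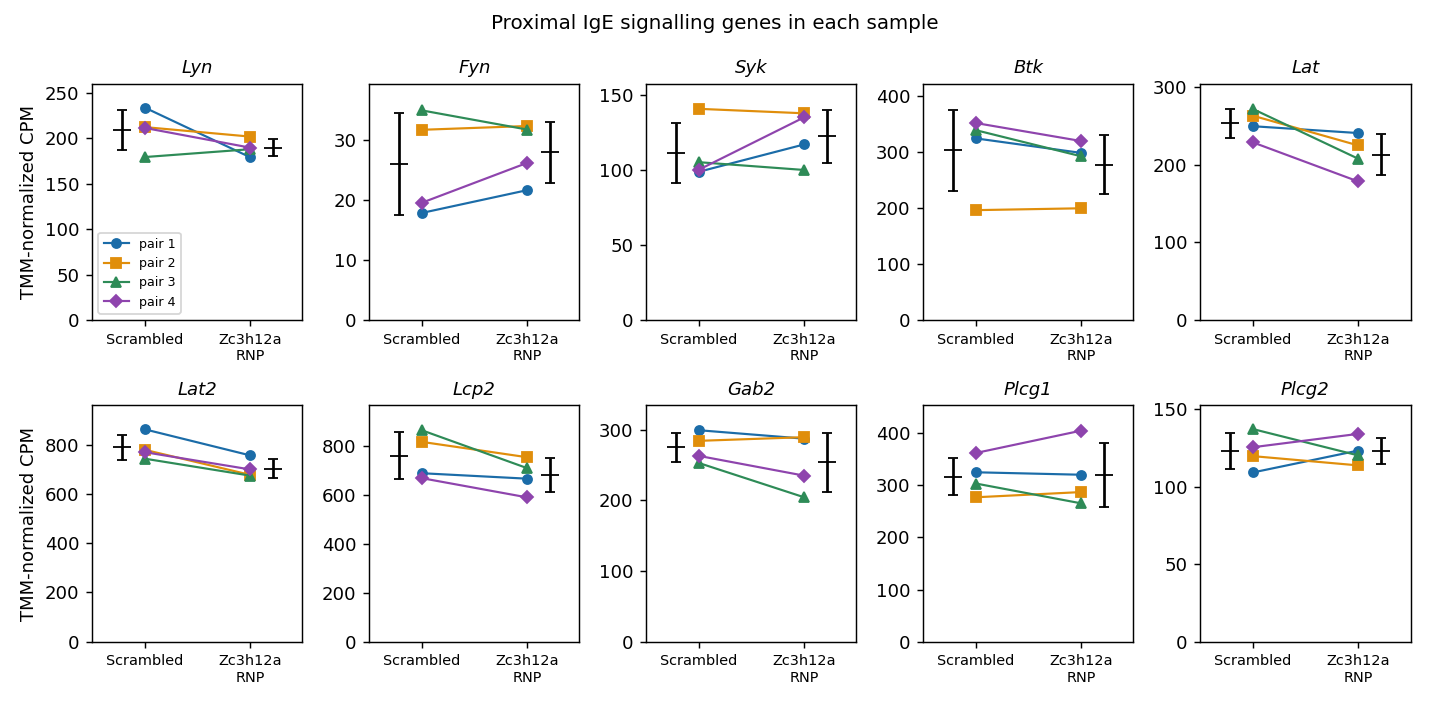
TMM-normalized CPM of each gene in the 8 samples, with a line joining the Scrambled and the Zc3h12a RNP sample of each replicate number; the black marks give each group's mean and SD (n = 4) and every axis starts at 0. The lines of *Lat*, *Lat2* and *Lcp2* slope downward in all 4 pairs, while those of *Fyn*, *Syk* and *Plcg2* go in both directions.

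Among the kinases, *Lyn* (chromosome 4, 3678061 to 3813122, plus strand) was measured at 233, 212, 179 and 211 CPM in Scrambled samples 1 to 4 and at 179, 202, 188 and 190 CPM in Zc3h12a RNP samples 1 to 4. The Zc3h12a RNP samples lay close together and 3 of the Scrambled samples were above all of them. EdgeR gave a log2 fold change of -0.14 (SE 0.094, adjusted p = 0.960), and the pairs differed by -0.38, -0.07, 0.07 and -0.16. Pair 1 thus held the widest gap, and without it the fitted value was -0.0095, while without pair 3 it was -0.26.

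*Fyn* (chromosome 10, 39244851 to 39442227, plus strand), the Src family kinase of the PI3 kinase branch, was measured at 17.8, 31.7, 34.9 and 19.5 CPM in Scrambled and 21.6, 32.3, 31.7 and 26.1 CPM in Zc3h12a RNP samples. Pairs 2 and 3 were high and pairs 1 and 4 low in both groups. Group means were 26.0 ± 8.56 and 27.9 ± 5.05 CPM (SD, n = 4 each), with a log2 fold change of 0.14 (SE 0.11, edgeR adjusted p = 0.960). Without replicate 2 the fitted value was 0.24, and without replicate 4 it was 0.054. *Fyn* had the widest range among Scrambled samples, at 1.96-fold.

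*Syk* (chromosome 13, 52736696 to 52802828, plus strand), the kinase that binds the phosphorylated γ chains, was measured at 98.6, 140.5, 105 and 99.98 CPM in Scrambled and 117, 138, 99.8 and 135 CPM in Zc3h12a RNP samples. Scrambled sample 2 stood apart from the other 3 of its group, and its pair mate was likewise high. Its fitted log2 fold change was 0.14 (SE 0.10, edgeR adjusted p = 0.960), with pairs 1 and 4 higher by 0.24 and 0.43 and pairs 2 and 3 at -0.03 and -0.07. The direction was therefore divided evenly among the pairs, and the fitted value was 0.26 without replicate 2 and 0.047 without replicate 4.

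*Btk* (chromosome X, 133443084 to 133484319, minus strand), the Tec family kinase that acts on phospholipase Cγ, was measured at 325, 197, 340 and 353 CPM in Scrambled and 299, 199.9, 293 and 320.3 CPM in Zc3h12a RNP samples. Pair 2 was low in both groups, and pairs 1, 3 and 4 lay close together. The log2 fold change was -0.11 (SE 0.079, edgeR adjusted p = 0.960), and 3 of 4 pairs were lower after Zc3h12a RNP.

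Among the adaptors, *Lat* (chromosome 7, 125962996 to 125968810, minus strand) was measured at 249.7, 263, 272 and 229 CPM in Scrambled and 241, 225, 208 and 179 CPM in Zc3h12a RNP samples. Of the Zc3h12a RNP samples, 3 lay below every Scrambled sample, and sample 1 lay within the Scrambled range. Means were 253 ± 18.7 and 213 ± 26.6 CPM, with a log2 fold change of -0.26 (SE 0.087, 95% interval -0.46 to -0.05). The unadjusted p was 0.0203 and the edgeR adjusted p over all genes 0.686, so *Lat* did not pass the test. When replicate 1, 2, 3 or 4 was left out, the unadjusted p was 0.120, 0.243, 0.0773 and 0.0785, with fold changes of -0.28 to -0.20 on the log2 scale. With all 4 pairs, the unadjusted p stayed under 0.05 with DESeq2 (0.00919), limma-trend with the block (0.0145), RLE (0.0333) and upper-quartile scaling (0.0319). It also did with at least 10 counts in every sample (0.0151) and after removal of the replicate effect before limma-trend (0.000990). With no replicate block it was 0.115, with library totals 0.0666 and with no filter 0.147.

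*Lat2* (chromosome 5, 134628120 to 134643882, minus strand), the relative of Lat that is also called NTAL, was measured at 862, 779, 743 and 769 CPM in Scrambled and 756, 677, 674 and 699 CPM in Zc3h12a RNP samples. Again 3 Zc3h12a RNP samples lay below every Scrambled sample, and sample 1 overlapped. The 4 pairs differed by -0.19, -0.20, -0.14 and -0.14, the narrowest spread of pair differences among the 10 genes (SD 0.033). Over the pairs, the fitted log2 fold change was -0.17 (SE 0.073, 95% interval -0.34 to 0.0025, edgeR adjusted p = 0.817).

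*Lcp2* (chromosome 11, 33996920 to 34042426, plus strand), the cytosolic adaptor recruited to Lat, was measured at 690.4, 819, 866.5 and 670.2 CPM in Scrambled and 668, 756, 712 and 592 CPM in Zc3h12a RNP samples. Samples 2 and 3 were the higher ones in both groups, and the groups overlapped. The log2 fold change was -0.16 (SE 0.079, edgeR adjusted p = 0.890), and pair differences ran from -0.28 to -0.05.

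*Gab2* (chromosome 7, 96730793 to 96958153, plus strand), the adaptor that recruits PI3 kinase downstream of Fyn, was measured at 299, 284, 253 and 263 CPM in Scrambled and 287, 289, 204 and 235 CPM in Zc3h12a RNP samples. Pairs 3 and 4 were lower than pairs 1 and 2 in both groups. The log2 fold change was -0.13 (SE 0.086, edgeR adjusted p = 0.960), with 3 of 4 pairs lower.

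The genes of the phospholipases were the members closest to no difference. *Plcg1* (chromosome 2, 160573176 to 160647426, plus strand) was measured at 324, 276.5, 303 and 361 CPM in Scrambled and 319.6, 286, 265 and 404 CPM in Zc3h12a RNP samples. Its log2 fold change was -0.00025 (SE 0.087, 95% interval -0.20 to 0.20). *Plcg2* (chromosome 8, 118224988 to 118361881, plus strand) was measured at 109, 119.6, 137 and 125 CPM in Scrambled and 123, 114, 120.1 and 134 CPM in Zc3h12a RNP samples. Its log2 fold change was 0.0019 (SE 0.089, 95% interval -0.20 to 0.21). For these genes 2 pairs were higher and 2 lower, and the edgeR adjusted p was 0.999 and 0.997.

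**Figure D3:**
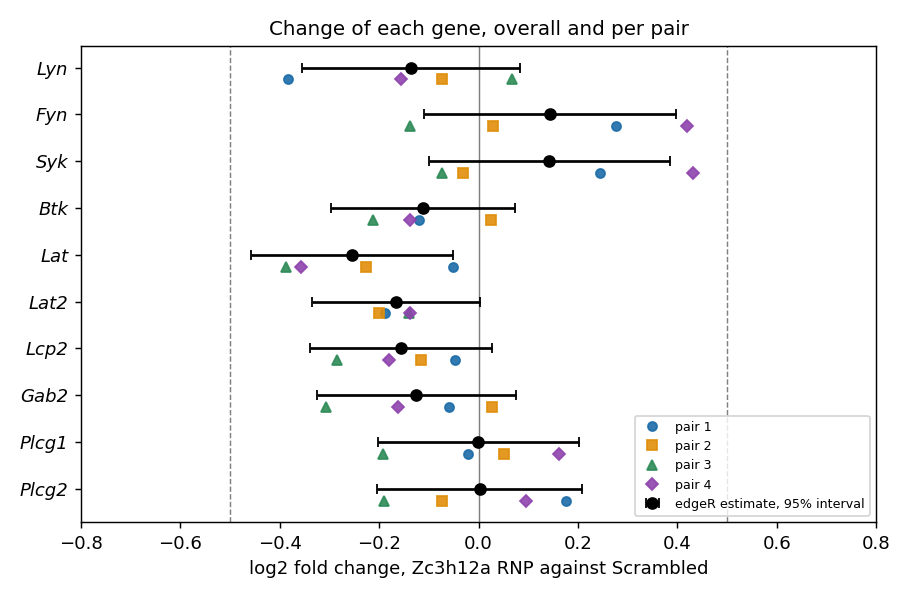
The log2 fold change of each gene, Zc3h12a RNP against Scrambled, as edgeR's estimate with its 95% interval (black) and as the difference within each of the 4 pairs (coloured); the dashed lines mark the threshold of 0.5 used for calls. All intervals end inside the dashed lines, and the interval of *Lat* lies below 0, from -0.46 to -0.05.

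For 3 couples of related proteins a ratio could be taken within each sample, which does not depend on library scaling. The per-length ratio of *Lyn* to *Fyn* was 31.7, 16.2, 12.4 and 26.2 in Scrambled and 20.05, 15.1, 14.3 and 17.5 in Zc3h12a RNP samples. *Lyn* thus exceeded *Fyn* at least 12.4-fold in every sample, or 6.51-fold with canonical transcript lengths. The ratio was lower in 3 of 4 pairs after Zc3h12a RNP, by a mean log2 difference of -0.28 (SD 0.41, n = 4 pairs), with p = 0.375 in an exact two-sided permutation test over the signs of the pair differences (adjusted over the 3 ratios, 0.5625). Without replicate 1 the difference was -0.16 and without replicate 3 it was -0.45. *Lat2* exceeded *Lat* by 2.22-fold to 3.18-fold, or by 1.46-fold to 2.09-fold with canonical transcript lengths. The log2 difference between groups was 0.089 ± 0.18 (exact permutation p = 0.375, adjusted 0.5625), and 0.036 to 0.16 on leaving out each replicate. *Plcg1* exceeded *Plcg2* by 1.08-fold to 1.47-fold, or by 1.87-fold to 2.56-fold with canonical transcript lengths. The log2 difference between groups was -0.0021 ± 0.14 (exact permutation p = 0.875, adjusted 0.875). The size of these folds thus depends on the length used, while the difference between groups does not. With 4 pairs, the smallest p this exact test can give is 2 of 16 sign assignments, so it cannot reach 0.05.

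Some kinases differed between replicate numbers in both groups alike. This was tested after the values were seen, by the 3 replicate terms of the same edgeR fit. Of the 10 genes, *Btk* (adjusted p = 0.00900) and *Fyn* (adjusted p = 0.0195) differed between replicate numbers, beside 28% of all genes tested. With so few genes, 2 of 10 cannot be set apart from that share. *Plcg1* followed at an adjusted p of 0.0698, and the other seven genes were at 0.128 to 0.690. *Btk* was at 197 and 199.9 CPM in pair 2 and at 293 to 353 CPM in the other 6 samples, with no overlap. The related kinase gene *Tec* went the other way in pair 2. It was at 31.5 CPM in both samples of pair 2 and at 21.4 to 25.7 CPM in the others (adjusted p = 0.0414). Mouse, culture and day of preparation cannot be told apart in a replicate number.

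**Figure D4:**
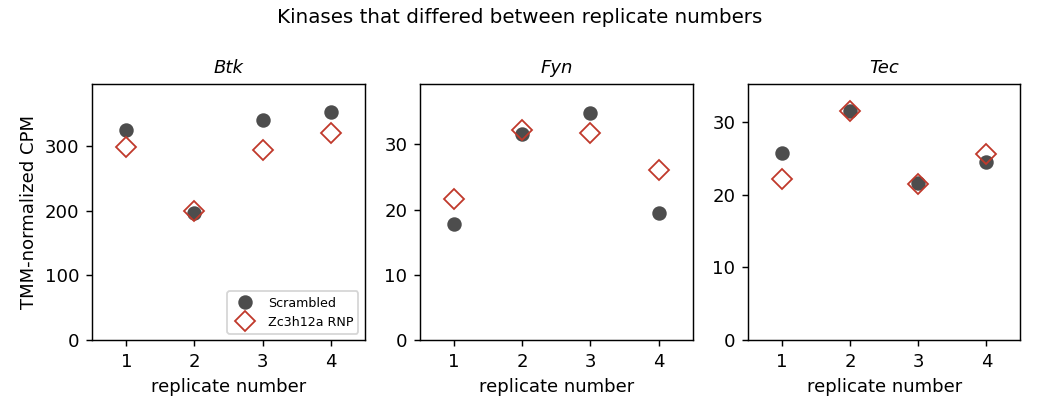
TMM-normalized CPM of 2 member kinases, *Btk* and *Fyn*, and of the related kinase *Tec*, by replicate number, with Scrambled as filled circles and Zc3h12a RNP as open diamonds. In pair 2, *Btk* is at its lowest and *Tec* at its highest in both groups.

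The genes around these proteins were taken from lists of the same pathway. None of the 82 tested genes in 6 lists was called. At an unadjusted p at or under 0.05 there were 8 lower genes and 1 higher gene, beside 4.05% and 2.12% of all genes in those directions. The split was 7 lower and 0 higher with RLE scaling and 7 and 1 with upper-quartile scaling, but 4 lower and 9 higher with library totals alone. DESeq2 gave 8 lower and 0 higher, and limma-trend with the block 11 and 1. At least 10 counts in every sample gave 11 lower and 0 higher, and no filter 4 and 0. Without replicate 2, 3 or 4, the split was 5 lower and 1 higher, 5 and 0, and 6 and 1. There were 0 in either direction with no replicate block and also without replicate 1, 6 lower and 0 higher without replicates 2 and 4, and 17 lower and 11 higher when the replicate effect was removed before limma-trend.

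**Figure D5:**
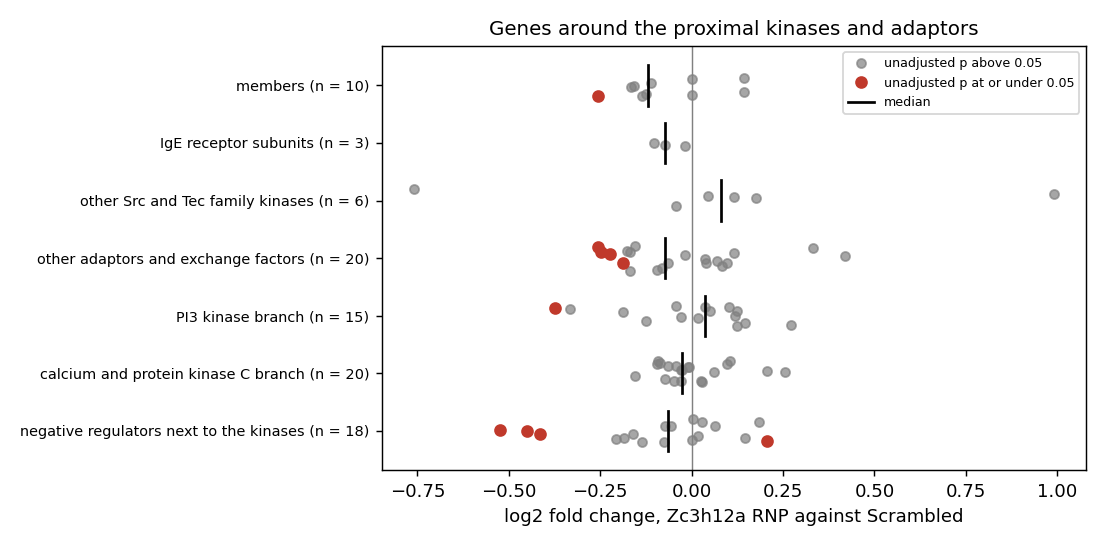
The log2 fold change, Zc3h12a RNP against Scrambled, of each tested gene in the pathway lists, with red for an unadjusted p at or under 0.05 and a black bar for the list's median. The medians lie between -0.12 for the 10 genes described above and 0.08 for the other Src and Tec family kinases, and the rightmost point, *Yes1* at 0.99, has a mean under 1 CPM in both groups.

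None of the receptor subunits passed the test. *Fcer1a*, the IgE-binding α chain, was at 2468 ± 426 CPM in Scrambled and 2422 ± 278 CPM in Zc3h12a RNP samples (log2 fold change -0.02), and *Ms4a2*, the β chain that Lyn phosphorylates, was at -0.10. All 3 subunits had negative values, with a median of -0.07 and 0 at an unadjusted p at or under 0.05.

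Of the 10 other Src and Tec family kinases listed, 9 were in the files and 6 were tested, with 4 positive and 2 negative values, a median of 0.08 and 0 at an unadjusted p at or under 0.05. *Txk* was the most abundant of these at 109 and 114 CPM (log2 fold change 0.05), and *Tec* was at 25.8 and 25.2 CPM (-0.04). *Lck* and *Zap70*, the lymphocyte counterparts of Fyn and Syk, stood low. *Zap70* did not exceed 0.95 CPM and *Lck* did not exceed 0.48 CPM in any sample. *Blnk*, the B cell relative of *Lcp2*, was at 2.88 to 7.84 CPM, while *Lax1* and *Sit1*, membrane adaptors of lymphocytes, did not exceed 0.29 and 0.05 CPM.

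Of 20 other adaptors and exchange factors tested, 8 had positive and 12 negative values (median -0.07), with 4 lower and 0 higher at an unadjusted p at or under 0.05. These 4 were *Bcl10* and *Malt1*, partners in a complex that activates NF-κB, *Rasgrp4*, a Ras exchange factor of mast cells, and *Cd2ap*, a scaffold of the actin cytoskeleton. *Malt1* went from 185 ± 55.8 to 156 ± 49.4 CPM (log2 fold change -0.26, lower in 3 of 4 pairs, unadjusted p = 0.0342, edgeR adjusted p = 0.752). *Bcl10* was at -0.22, *Rasgrp4* at -0.19 and *Cd2ap* at -0.25, and each of these was lower in 4 of 4 pairs.

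In the PI3 kinase branch, 15 genes were tested, with 9 positive and 6 negative values and a median of 0.04. *Pik3r1*, a regulatory subunit that binds Gab2, was the gene with an unadjusted p at or under 0.05, at 137, 120.0, 86.2 and 119.8 CPM in Scrambled and 89.6, 104, 71.5 and 90.9 CPM in Zc3h12a RNP samples. All 4 pairs had the lower value after Zc3h12a RNP (log2 fold change -0.37, SE 0.091, unadjusted p = 0.00391, edgeR adjusted p = 0.465).

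In the calcium and protein kinase C branch, 20 genes were tested, with 7 positive and 13 negative values, a median of -0.03 and 0 at an unadjusted p at or under 0.05. *Prkcb*, a diacylglycerol-dependent protein kinase C, was at 701 and 698 CPM (log2 fold change -0.0059), and *Dgkz*, which removes diacylglycerol, was at -0.07.

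The negative regulators next to the kinases came last. Of 18 tested, 8 were positive and 10 negative (median -0.07), and 3 were lower and 1 higher at an unadjusted p at or under 0.05. *Ptpn6*, the tyrosine phosphatase also called SHP-1, was at 489, 206, 403 and 433 CPM in Scrambled and 345, 162, 260.1 and 349 CPM in Zc3h12a RNP samples. Pair 2 was low in both groups, and the difference was in the same direction in 4 of 4 pairs (log2 fold change -0.45, SE 0.086, unadjusted p = 0.000995, edgeR adjusted p = 0.401). *Sla*, an adaptor that lowers receptor levels with Cbl, was at 417, 252, 447 and 677 CPM in Scrambled and 220.1, 214, 346 and 457 CPM in Zc3h12a RNP samples. The value was lower in 4 of 4 pairs (log2 fold change -0.52, SE 0.12, unadjusted p = 0.00283, edgeR adjusted p = 0.449), and it was called lower in 2 alternatives, DESeq2 and removal of the replicate effect before limma-trend. *Pag1*, the membrane adaptor that brings the inhibitory kinase Csk to Src family kinases, was at 60.5 ± 22.4 and 44.1 ± 10.7 CPM (-0.41, unadjusted p = 0.00486, edgeR adjusted p = 0.503). *Cbl*, a ubiquitin ligase for activated receptors and kinases, was higher in 4 of 4 pairs, at 25.5 ± 6.92 and 29.4 ± 7.50 CPM (0.21, unadjusted p = 0.0323, edgeR adjusted p = 0.744).

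For the members, the gene with the most similar profile was sought among 9667 others with a mean log2 CPM above 2, by Pearson's r of log2 CPM over the 8 samples. The highest value was that of *Btk* with *Gtf2ird2*, at r = 0.993 (Spearman's rho 0.976), and r was 0.967 without the 2 samples in which *Btk* lay farthest from its median. *Fyn* was most like *Lgalsl* at r = 0.976 and *Lcp2* most like *Ppig* at 0.978. *Lat* was most like *Ddrgk1* at 0.971, *Plcg1* most like *Kdm5c* at 0.971 and *Gab2* most like *Snrnp70* at 0.970. For *Lyn* it was *2410006H16Rik* at 0.965, for *Syk* it was *Vash1* at 0.958 and for *Lat2* it was *Ccdc32* at 0.952. None of the 10 was most like another of the 10. These maxima were picked from 9667 genes over 8 samples that share libraries, mice and scaling, and they are given as descriptions. Among the members themselves, *Lat* and *Lcp2* were the most alike (r = 0.790) and *Syk* and *Btk* the most opposed (r = -0.75).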

How the data were processed

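RNA of 8 BMMC samples was measured, 4 Scrambled and 4 Zc3h12a RNP. The authors enriched poly(A) RNA, mapped reads with HiSat2 2.2.1 to GRCm39 and counted them per gene symbol with featureCounts 2.0.1. They deposited raw counts, without normalization and without the batch correction that the methods name. The strand setting and the handling of reads with several matches are not given in the sources used here.

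Counts were filtered with filterByExpr by group, normalized by TMM and tested with edgeR 4.0.16 (R 4.3.3, quasi-likelihood, replicate number and RNP as terms), with Benjamini-Hochberg adjustment over 14934 genes. Calls needed an adjusted p at or under 0.05 and a log2 fold change beyond 0.5. Log2 CPM used a prior count of 2. The fit was tested on simulated data. Exon lengths and positions came from GENCODE vM39 on GRCm39, where 22601 of 24059 symbols were found. Gene lists come from textbook knowledge of the pathway. The 10 genes and the lists were chosen with earlier results of these data known.

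Named genes are the 10, *Zc3h12a*, genes that overlap a member, the lymphocyte paralogs, the most similar gene to each member, and, per pathway list, up to 4 genes with an unadjusted p at or under 0.05 (lowest first) or else the 2 with the highest per-length level. *Tec* by replicate number, *Yes1*, *Hdc*, *Tpsb2* and the platelet and basophil genes in the closing section were chosen after their values were seen. The values of some genes that this rule names are not reported here.

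Whether a replicate number marks a mouse is not stated in the labels; the pairing follows the design with cells of 4 mice. As a check, deviations from the group mean were correlated within each pair, which gave 0.595, 0.0752, 0.624 and 0.0414 for pairs 1 to 4 over all genes, against at most 0.398 across numbers. Over the 9668 more abundant genes (mean log2 CPM above 2) the pairs gave 0.756, 0.717, 0.728 and 0.719, against at most 0.137. All samples of a group differed beyond sampling noise (chi-square of at least 53.6 per degree of freedom). Scrambled 2 and Scrambled 4 stood at the ends of the first principal component, which held 65.7% of the variance. Alternatives were DESeq2 1.42.0, limma-trend 3.58.1, limma-trend after the replicate effect had been subtracted, no block, other scalings, other filters and leaving out replicates; figures were drawn with matplotlib 3.10.9.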

Additional observations from a re-analysis of the deposited data

Results flagged for a closer look

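Of 28 groups of 4 samples examined for a sample far from the other three of its group, 2 were flagged, where chance alone flags about 1 in 20, or 1.4. For *Syk*, Scrambled sample 2 at 140.5 CPM lay apart from 98.6, 105 and 99.98 CPM, with a gap of 0.847 of the group's range, above Dixon's critical value for 4 samples. Its pair mate was at 138 CPM in the Zc3h12a RNP group. For *Zc3h12a*, Scrambled sample 1 at 24.9 CPM lay below 37.1 to 39.3 CPM, with a gap of 0.846 of the range, and its pair mate was likewise the lowest of its group at 26.8 CPM. The part of mouse, culture or library in these values was not tested.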

How the results depend on the processing

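None of the 10 genes was called under any of 14 alternatives. Of 140 alternative fold changes of single genes, 124 kept their sign and their side of the adjusted p, and 8 genes changed sign in none. On leaving out each replicate, *Btk* ran from -0.13 to -0.065 and *Lat2* from -0.23 to -0.094. *Lat* and *Lat2* passed the adjusted p (0.0378 and 0.0419, at -0.26 and -0.17, short of the fold threshold) when the replicate effect was removed before limma-trend, a procedure that does not count the degrees of freedom of the removed effect.

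The count of the 10 genes with an unadjusted p at or under 0.05 was 1 with edgeR and the replicate block. It stayed at 1 with DESeq2, with limma-trend and the block, and with RLE or upper-quartile scaling. The count was 0 with no replicate block, library totals or no filter, without replicates 2 and 4, and on leaving out each replicate. It was 2 with at least 10 counts in every sample and 5 after removal of the replicate effect. *Plcg1* (-0.00025) turned positive with no replicate block (0.012), upper-quartile scaling (0.011), library totals (0.068) and no filter (0.033), and ran from -0.054 to 0.051 on leaving out each replicate. *Plcg2* (0.0019) turned negative with DESeq2 (-0.0186), no replicate block (-0.00054), RLE scaling (-0.0186), at least 10 counts (-0.0137) and without replicates 2 and 4 (-0.0109), and ran from -0.0289 to 0.0886 on leaving out each replicate. The log2 ratio of *Lyn* to *Fyn* ran from -0.45 to -0.16 and that of *Plcg1* to *Plcg2* ran from -0.0443 to 0.0626 on leaving out each replicate. The order of per-length levels kept 7 places with the longest transcripts and 5 with canonical transcripts. The count of genes that differ between replicate numbers, 2, was 1 with RLE scaling (*Fyn* at 0.0750), 2 with no filter and 3 with upper-quartile scaling, library totals or at least 10 counts, beside 15.8%, 13.8%, 26.2%, 26.7% and 36.4% of all genes, so the share of the 10 lay on either side of the background.

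Over all genes, 0 were called higher and 0 lower by edgeR, with 922 at an unadjusted p at or under 0.05. DESeq2 called 8 higher and 52 lower, limma-trend 1 lower, removal of the replicate effect 34 and 79, RLE scaling 1 lower, no filter 9 and 31, at least 10 counts 3 lower, and edgeR without replicates 2 and 4 11 lower. Leaving out each replicate gave 0 to 80 higher and 0 to 57 lower, with both maxima without replicate 2. The cause was not tested. The largest shift of the median of all genes was 0.07 on the log2 scale, with library totals. The run without replicates 2 and 4, the canonical lengths and the test between replicate numbers were added after seeing the data. With 4 samples a group, the p-values of the blocked edgeR fit rest on the spread that remains after the replicate terms. Changes below the intervals given could not be resolved.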

Other observations

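Genes best known from platelets and megakaryocytes were abundant in these mast cell cultures. *Itga2b*, the αIIb integrin, was at 1261 to 2026 CPM and *Gp1ba*, a receptor for von Willebrand factor, at 430 to 1042 CPM over the 8 samples. *Pf4*, a platelet chemokine, was at 0.17 to 2.90 CPM, and *Gp9*, another platelet receptor subunit, stayed under 1 CPM on average. The summed level of this list was 2148 to 2516 CPM in Scrambled and 1787 to 2362 CPM in Zc3h12a RNP samples, which overlapped, and 0 of its 4 tested genes were called.

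All 5 basophil markers were at a mean of at least 1 CPM, with sums of 2646 to 3558 CPM in Scrambled and 2687 to 3297 CPM in Zc3h12a RNP samples. Most of the sum came from *Fcer1a*, which mast cells also express. *Cd200r3* was at 439 to 535 CPM and *Il3ra*, the IL-3 receptor α chain, at 65.0 to 120 CPM, while the protease genes *Mcpt8* and *Prss34* were at 1.43 to 8.51 and 0.905 to 2.25 CPM.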
